A study of Mus musculus with 11 samples.

Results

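The 5 mature miRNAs of the mouse miR-23/27/24 clusters, mmu-miR-23a, mmu-miR-27a, mmu-miR-23b, mmu-miR-27b and mmu-miR-24 (miR-23a to miR-24 from here), were followed across 11 scans of a custom miRNA microarray. They were taken by name from the spots that the deposited table of values covers, which gave 20 spots, 4 for each miRNA, of the 1336 spots for 334 mouse miRNAs. No star or second-arm form of these names was found among them. The arrays held RNA of female mice in 4 groups, with 3 primary mammary tumors of C3(1)/Tag mice, 2 FVB glands, 3 Balb/C glands and 3 FVB129B6 glands. The C3(1)/Tag mice were of strain FVB, and carry the SV40 T and t antigens under the C3(1) promoter, whose activity is not restricted to the ductal cells of the mammary gland. The glands were normal and came from mice in late pregnancy, and their labels give a strain and no transgene. No age was given for any group. The labels do not say that the replicates were separate animals, and the titles of Balb/C replicates 2 and 3 differ in one letter, L against R, so that both could be glands of 1 mouse. Where replicates share an animal, the p-values below measure a spread that is in part technical.

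Each cluster is a short stretch of DNA from which the precursors of a miR-23, a miR-27 and a miR-24 are made as one primary transcript. The paralogous clusters give nearly the same products, and the mature miR-24 made from both is identical. A miRNA finds its target mRNAs mainly through its seed, the bases 2 to 8 from the 5′ end, and members with one seed therefore have largely the same predicted targets. Both clusters are known from endothelial cells and the miR-23a cluster also from blood cell development, while miR-27 is known as a brake on fat cell differentiation and miR-24 as a regulator of cell cycle genes.

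In the RefSeq annotation of GRCm38.p6, the miR-23a cluster lies on the plus strand of chromosome 8. Its hairpins are Mir23a at chr8:84208518-84208592, Mir27a at chr8:84208672-84208758 and Mir24-2 at chr8:84208815-84208921, within 404 bases. No other gene of that annotation spans this cluster, and the nearest protein-coding gene, Zswim4, lies 2020 bases away. The miR-23b cluster lies on the plus strand of chromosome 13, with Mir23b at chr13:63300484-63300557, Mir27b at chr13:63300712-63300784 and Mir24-1 at chr13:63301208-63301275, within 792 bases. It is inside the span of the protein-coding gene Aopep, an aminopeptidase gene. Exons were not given in the annotation used here, so exonic and intronic positions are not stated.

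The mature sequences are shown because the whole comparison of the clusters rests on probes that tell near-identical RNAs apart. They are taken from RefSeq, written 5′ to 3′ with the seed in capitals.
miR-23a-3p: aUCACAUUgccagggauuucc
miR-27a-3p: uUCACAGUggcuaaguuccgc
miR-27b-3p: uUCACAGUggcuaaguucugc
miR-24-3p: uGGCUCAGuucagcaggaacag
For these 4 the part of the deposited 60-base probe that pairs with the miRNA was the exact reverse complement of the mature sequence. The miR-23a and miR-23b probes bind targets with one seed, and so do the miR-27a and miR-27b probes, and no other miRNA on the array shared either of those seeds or that of miR-24. miR-27a and miR-27b differ by C19U, counted from 1 at the 5′ end with the base of miR-27a first. They are repeated here with that base in capitals.
miR-27a-3p: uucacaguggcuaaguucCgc
miR-27b-3p: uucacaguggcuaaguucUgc
The probes for miR-23a and miR-23b likewise differed at 1 base. The next most similar mouse probe was at least 7 edits away for the miR-23 and miR-27 probes, and 10 edits away for miR-24. A signal on one paralog's probe can therefore hold RNA of the other paralog, and the miR-24 probe reads the sum of both clusters.

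All 5 miRNAs gave strong signals on every gland array, and were dim or at background on the tumor arrays. The values that follow are green processed intensities, the scanner program's background-subtracted and dye-normalized brightness, as the geometric mean of a miRNA's spots on one array, before any scaling between arrays.

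miR-23a gave 62541 and 39347 on the FVB glands, replicates 1 and 2. Its values were 89051, 85851 and 84363 on the Balb/C glands and 71752, 100872 and 90436 on the FVB129B6 glands, replicates 1 to 3. On the 3 tumor arrays it gave 2997, 1061 and 3490. Before scaling, both FVB values thus lay below all 6 of the other glands, and the tumors lay far below every gland.

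miR-27a, the second product of the miR-23a cluster, gave 32788 and 20201 on the FVB glands. It gave 45042, 39364 and 43622 on Balb/C, 41920, 53441 and 47900 on FVB129B6, and 847, 256 and 707 on the tumors. The order of the groups was that of miR-23a.

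miR-23b, of the chromosome 13 cluster, gave 45646 and 33368 on the FVB glands. The Balb/C glands gave 68511, 61666 and 63209, the FVB129B6 glands 57296, 76605 and 68300, and the tumors 639, 215 and 744. No gland strain other than FVB stood apart.

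miR-27b, its neighbor in that cluster, gave 19805 and 14291 on the FVB glands. It gave 31546, 23946 and 29271 on Balb/C, 29322, 37023 and 33448 on FVB129B6, and 351, 246 and 443 on the tumors. The tumor values of miR-27b were spread over the narrowest range of the 5 miRNAs.

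miR-24, the shared product, gave 60826 and 48323 on the FVB glands. The Balb/C arrays gave 92949, 83159 and 86238, the FVB129B6 arrays 71363, 101123 and 83079, and the tumor arrays 890, 443 and 1054. Tumor replicate 2 was the dimmest tumor array for each of the 5 miRNAs.

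**Figure D1:**
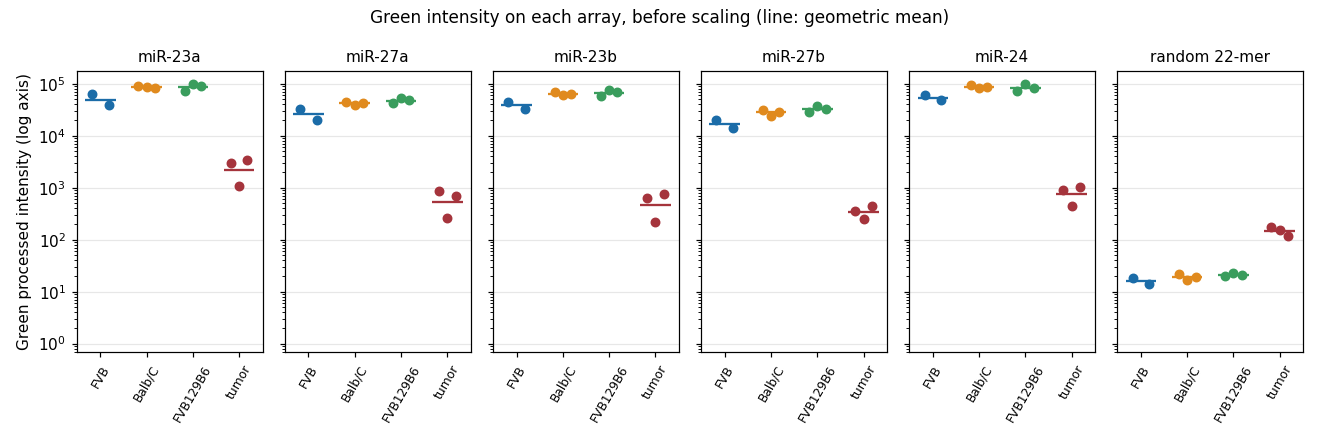
Green processed intensity, on a log axis, of the 5 miRNAs and of the random 22-mer control probes on each of the 11 arrays. Points are arrays, lines are geometric means of a group, and the tumor points of the miRNAs lie between 215 and 3490 against 14291 to 101123 on the glands, while the control probes lie higher on the tumor arrays than on the glands.

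The arrays differed in overall brightness in the same order. The median green intensity over the 1336 spots was 188.5 and 245.5 for the FVB glands, 508 to 583 for Balb/C, 520.5 to 671.5 for FVB129B6 and 125 to 170 for the tumors. Of 334 mouse miRNAs, 209 to 262 were well above background on a gland array and 15 to 64 on a tumor array. A miRNA is called well above background here when at least 50% of its spots carry that flag of the scanner program. The tumor arrays were on one slide and all glands on another, with different versions of the scanner program, and both FVB arrays lay in a column of their own on the gland slide. Tumor, slide and program version cannot be told apart, and neither can strain and that column. The number of arrays limits the precision, and no spot was saturated.

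A probe for the small nuclear RNA U6 gave log2 green intensities of 17.3 to 18.1 on the glands and 13.6 to 14.9 on the tumors. Less labelled RNA on the tumor arrays and fewer copies per cell of these miRNAs cannot be told apart from such values, and neither can fewer cells of a type and less RNA per cell.

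Across the gland strains, each of the 5 miRNAs was higher in FVB than in the other strains once each array had been scaled to its median, and this order depended on the scaling. The level is the log2 intensity minus the array's median. miR-23a stood at 7.85 ± 0.20 (SD, n = 2) in FVB, 7.30 ± 0.09 (n = 3) in Balb/C and 7.24 ± 0.14 (n = 3) in FVB129B6. miR-27a stood at 6.90 ± 0.22, 6.28 ± 0.01 and 6.38 ± 0.09 in the same order of strains. For both products of the miR-23a cluster the FVB arrays lay above all Balb/C and FVB129B6 arrays. The share of all miRNAs with this separation is not given here.

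The products of the miR-23b cluster were likewise highest in FVB, while the order of Balb/C and FVB129B6 differed between members. miR-23b stood at 7.50 ± 0.05 in FVB, 6.87 ± 0.05 in Balb/C and 6.87 ± 0.11 in FVB129B6. miR-27b stood at 6.29 ± 0.06, 5.68 ± 0.10 and 5.85 ± 0.09, and miR-24 at 7.98 ± 0.04, 7.31 ± 0.04 and 7.20 ± 0.09. The Balb/C and FVB129B6 arrays overlapped for miR-23a, miR-23b and miR-24 and did not for miR-27a and miR-27b. The share of all miRNAs without such overlap is not given here. By limma, miR-27a and miR-27b had adjusted p of 0.794 and 0.538 between these 2 strains.

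**Figure D2:**
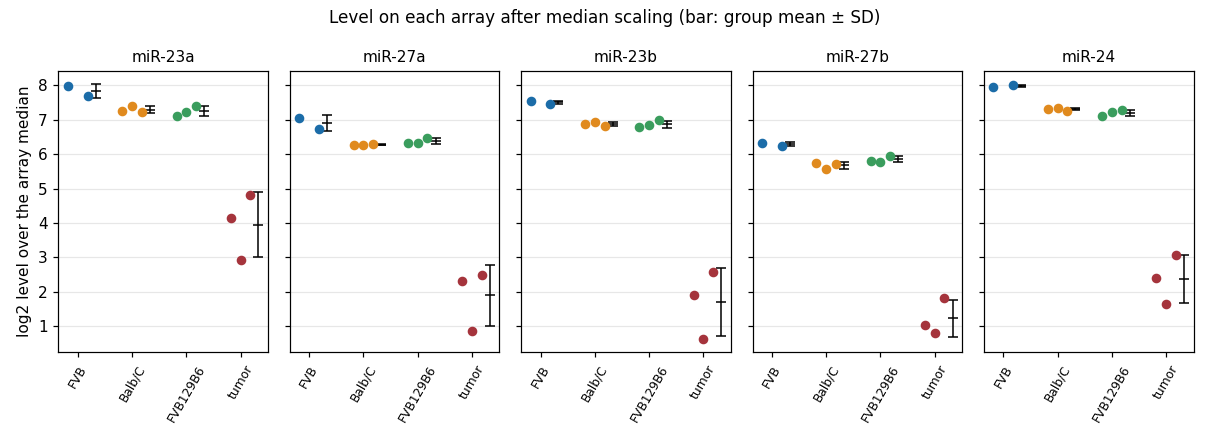
Level of each miRNA on each array, as log2 intensity over the array median, with the mean ± SD of each group as a bar beside its points. The FVB points lie above the other gland points for all 5 miRNAs after this scaling, and the tumor points spread from 0.62 to 4.80. The share of all miRNAs with this separation of FVB is not given here.

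By limma's moderated F-test over the 3 strains with Benjamini-Hochberg adjustment over 261 miRNAs, 5 of 5 members passed the threshold of 0.05, with adjusted p from 0.0102 for miR-24 to 0.0454 for miR-23a. Of all 261 miRNAs tested, 46.0% passed. Balb/C minus FVB was called lower for 5 of 5, where 32.2% of all miRNAs were called lower. The log2 differences ran from -0.55 for miR-23a (SE 0.17, adjusted p = 0.0409, limma) to -0.66 for miR-24 (SE 0.15, adjusted p = 0.0124). Their median of -0.62 stood beside a median of -0.48 over all 261 miRNAs.

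For FVB129B6 minus FVB, 4 of 5 were called lower, against 31.4% of all miRNAs. miR-24 had the greatest difference at -0.78 (SE 0.15, adjusted p = 0.00567, limma) and miR-27b the smallest at -0.44 (SE 0.16), which missed the threshold with an adjusted p of 0.0569. The median was -0.60 over the members and -0.39 over all miRNAs. Both contrasts share the 2 FVB arrays, so their likeness is in part built in.

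Balb/C and FVB129B6 were not distinguished for any member, and limma called 0 of 5, against 3.45% of all miRNAs. No member had an unadjusted p under 0.05 in this contrast. The differences ran from -0.18 (95% confidence interval -0.50 to 0.15) for miR-27b to 0.11 (-0.20 to 0.42) for miR-24. Differences within such intervals were not excluded with 3 arrays a side.

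The strain differences of all 5 miRNAs moved with the scaling as a block. With the 75th percentile in place of the median, Balb/C minus FVB ran from -0.23 to -0.12 and FVB129B6 minus FVB from -0.41 to -0.07, and 0 members were called in either contrast. The median over all 261 miRNAs moved with it, to -0.05 and -0.03. The members' median minus that of all miRNAs stayed at -0.14 and -0.21, as it must where each array is shifted by 1 constant. Under this scaling 16 miRNAs of all were called lower and 31 higher in Balb/C minus FVB, against 84 and 15 with the array median, and 43 and 40 in FVB129B6 minus FVB, against 82 and 21. Scaling on the miRNAs well above background, quantile normalization, a different background correction (normexp), the ratio of green to red and a fit over all 11 arrays also left 0 called. The members' median minus that of all miRNAs was -0.12 in Balb/C minus FVB and -0.07 in FVB129B6 minus FVB under quantile normalization. It was 0.0 and -0.05 for green over red and 0.20 and 0.16 under normexp, in the same order of contrasts. With no scaling the sign of the strain differences turned, and all 5 were called higher than in FVB, by 0.69 to 0.80 in Balb/C and by 0.64 to 0.98 in FVB129B6. Most miRNAs did the same, with 151 and 176 of all 261 called higher in these contrasts. Scaled on U6 the 5 members were higher than in FVB by 0.53 to 0.64 and 0.61 to 0.95, and only miR-27b in FVB129B6 was called. Of all 261 miRNAs, 94 and 145 were called higher under that scaling. Leaving out 1 gland array at a time left 2 to 5 called in Balb/C minus FVB and 1 to 4 in FVB129B6 minus FVB, and FVB replicate 1 gave the lowest of the former and FVB129B6 replicate 1 the lowest of the latter.

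**Figure D3:**
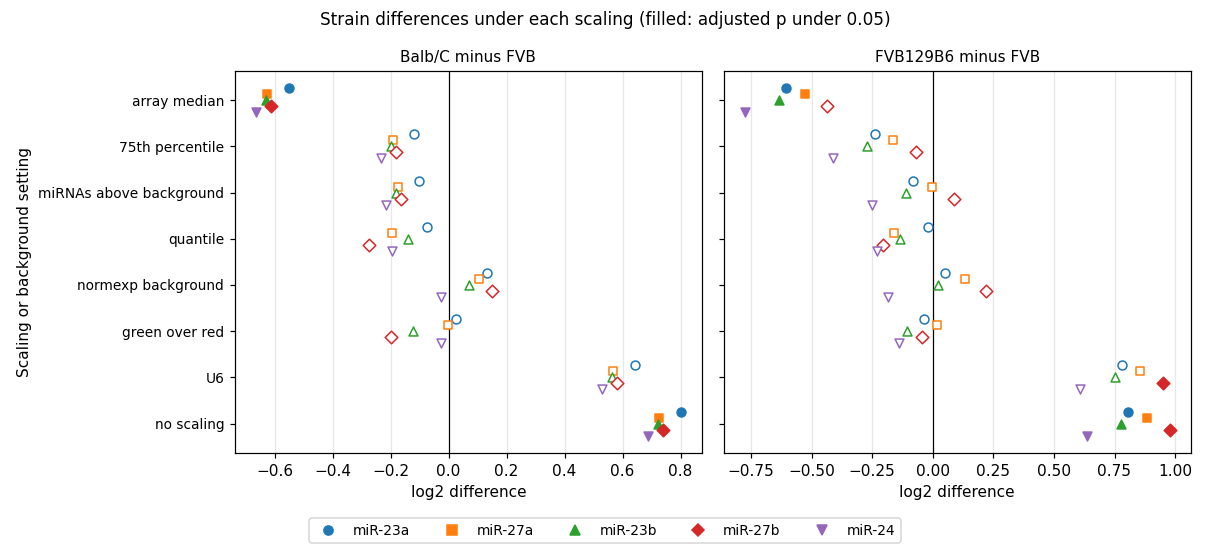
Log2 difference of each miRNA between Balb/C or FVB129B6 and FVB glands under 8 settings, filled where limma's adjusted p was under 0.05. The points lie left of 0 with array medians, near 0 with most other scalings, and right of 0 with U6 or no scaling.

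The difference between paralogs on the same array does not depend on a scaling constant, so the clusters can be compared without a choice of that constant. Quantile normalization, normexp and green over red are no such constants and can change the difference. For the miR-23 pair its mean over the glands was -0.39 with array medians and -0.19 for green over red. Only its change across groups is read here, since levels of different probes are not comparable. miR-23b minus miR-23a was -0.45 and -0.24 on the FVB glands, -0.38, -0.48 and -0.42 on Balb/C and -0.32, -0.40 and -0.41 on FVB129B6. miR-27b minus miR-27a was -0.73 and -0.50 on FVB, -0.51, -0.72 and -0.58 on Balb/C and -0.52, -0.53 and -0.52 on FVB129B6. The strains overlapped in both.

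An exact permutation test on F over the 560 relabelings of the 8 glands gave p = 0.607 for the miR-23 pair, p = 0.461 for the miR-27 pair and p = 0.711 for the mean of both, each with an adjusted p of 0.711 over the 3 tests. A shift of one cluster against the other between strains was not detected. Because a probe's signal can hold RNA of the other paralog, a shift could read as smaller than it was. How much smaller was not tested. The strain means of the miR-23 pair were -0.35 ± 0.15 (SD, n = 2) in FVB, -0.42 ± 0.05 (n = 3) in Balb/C and -0.38 ± 0.04 (n = 3) in FVB129B6. Those of the miR-27 pair were -0.61 ± 0.16, -0.60 ± 0.10 and -0.52 ± 0.01.

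On the tumor arrays the pairs gave different values. miR-23b minus miR-23a was -2.23, -2.31 and -2.23 on the 3 tumors, below every gland. miR-27b minus miR-27a was -1.27, -0.06 and -0.67, a spread that contains the gland values. No test was made, because both miRNAs of a pair were well above background on only 1 tumor array for the miR-23 pair and on none for the miR-27 pair. The tumor value of the miR-23 pair depended on the background correction. Under normexp with an offset of 50 on the median pixel signal, miR-23b minus miR-23a was -0.79 to -0.29 on the tumors and -0.49 to -0.30 on the glands, so that the groups overlapped.

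**Figure D4:**
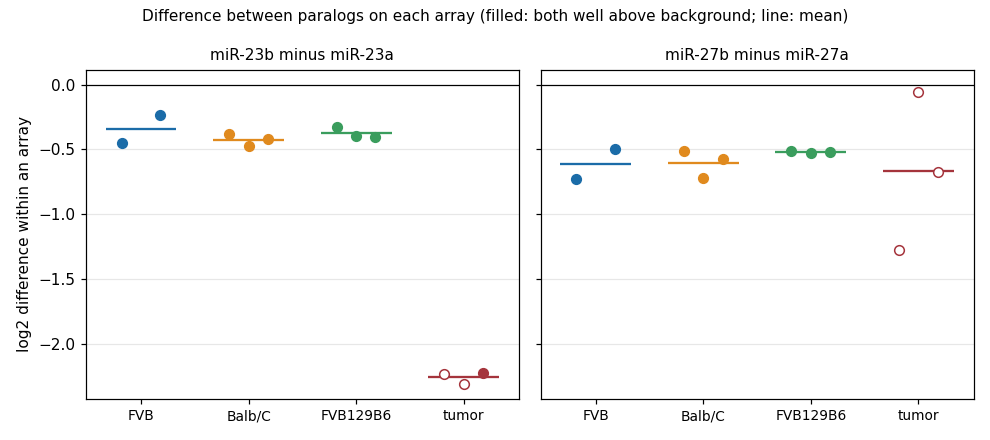
Log2 difference between paralogs within each array for the miR-23 and the miR-27 pair, with filled points where both miRNAs were well above background and a line at the group mean. The gland strains overlap in both panels, and the tumor points of the miR-23 pair lie at -2.31 to -2.23, of which 1 is filled.

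The level of each member on the tumor arrays was far below that on the glands. Scaled to array medians, miR-23a stood at 3.96 ± 0.95 (SD, n = 3) on the tumors, miR-27a at 1.89 ± 0.89, miR-23b at 1.70 ± 1.00, miR-27b at 1.23 ± 0.53 and miR-24 at 2.37 ± 0.71. No tumor array overlapped a gland array for any of them, and the share of all miRNAs without such overlap is not given here. Against the mean of the 3 gland strains, limma called 5 of 5 lower, where 52.5% of all 261 miRNAs were called lower and 90.4% were called in either direction. Each member passed the filter for testing only through the gland arrays, where it was high, so the call is no independent support for the fall. With no filter, limma called 138 of 334 miRNAs lower and 173 higher, with a median difference of 0.67.

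Within the miR-23a cluster, miR-23a fell by 3.51 on the log2 scale (SE 0.32, adjusted p = 1.39e-06, limma) and miR-27a fell by 4.62 (SE 0.30, adjusted p = 8.68e-08). Within the miR-23b cluster, miR-23b fell by 5.38 (SE 0.33, adjusted p = 4.87e-08) while miR-27b, called with an adjusted p of 4.03e-09, was well above background on no tumor array and is given below only as a bound. miR-24 fell by 5.12 (SE 0.25, adjusted p = 7.96e-09). With each tumor level set to at least the lowest level well above background on its array, the differences were -3.51 for miR-23a, -4.20 for miR-27a, -4.84 for miR-23b and -4.97 for miR-24, so that the order of miR-23b and miR-24 rests on values below background. The median difference over the 261 tested miRNAs was -0.83. Against FVB glands alone, the strain of the tumors, 5 of 5 were called lower, against 52.5% of all miRNAs, beside a median over all miRNAs of -1.04. The differences of miR-23a, miR-23b and miR-24 were -3.89, -5.80 and -5.60, and with that floor -3.89, -5.26 and -5.45. Both contrasts share the tumor and FVB arrays.

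Not all of these tumor levels were well above background. miR-23a, miR-27a and miR-24 were well above background on 2 of the 3 tumor arrays, miR-23b on 1 and miR-27b on none, and on tumor replicate 2 no member was. miR-27b thus has only a bound, and was at least 15.4-fold lower in tumors than in the mean of the gland strains when arrays were scaled to medians. That bound took, on each tumor array, the higher of the miRNA's own level and the lowest level well above background, and it fell to 1.39-fold under quantile normalization and 1.96-fold under the 75th percentile. It was 4.28-fold when arrays were scaled on U6. The SD between spots of a member had a median of 0.52 on the tumor arrays and 0.03 on the glands on the log2 scale.

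The brightness that the scanner read before any correction shows how near the tumor values lie to background. The median pixel signal of a member, averaged over its spots, was 2438 to 17611 on the glands and 95 to 184 on the tumors. Probes with random 22-mer sequence gave 94.1, 91.2 and 95.7 on tumor replicates 1 to 3. Over those probes miR-23a was 1.54, 1.19 and 1.93 times as bright, and the other 4 miRNAs were 1.04 to 1.38 times as bright. miR-23a was therefore the member that stood clearest of background on the tumor arrays, and its gap to the random probes was 50.9, 17.5 and 88.7 units of brightness. After dye normalization the random probes gave mean green intensities of 174, 154 and 119 on the tumors and 14 to 23 on the glands, while the members gave 215 to 3490 on the tumors. Single random spots reached 378, 296 and 213 on tumor replicates 1 to 3. The same kind of control was thus brighter on the tumor slide than on the gland slide after the correction.

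The tumor contrast kept its sign under most settings. Scaled on U6, which was itself lower on the tumors, the differences from the gland strains ran from -1.66 for miR-23a to -3.53 for miR-23b, and 5 of 5 were called. With the 75th percentile they ran from -0.53 to -2.41, and with scaling on the miRNAs well above background from -0.98 to -2.85, with 5 of 5 called in each. The median over all miRNAs was 1.01, 2.14 and 1.70 under these scalings, and the members' median minus that median was -3.88 in each, as it must be where each array is shifted by 1 constant. That gap was -1.004 under quantile normalization and -1.48 for green over red, which are no such shift. Of all miRNAs, 70 were called lower and 172 higher under the 75th percentile, against 137 and 99 with the array median. Scaled on U6, 85 were called lower and 139 higher, and with scaling on miRNAs well above background 76 and 161. Under quantile normalization 4 of 5 were called lower, beside 103 of all 261 miRNAs, and miR-23a turned to 0.34 (adjusted p = 0.13, limma). Against FVB alone, miR-23a lost its call under the 75th percentile at -0.65 (adjusted p = 0.063) and under the ratio of green to red at -0.58 (adjusted p = 0.0524).

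**Figure D5:**
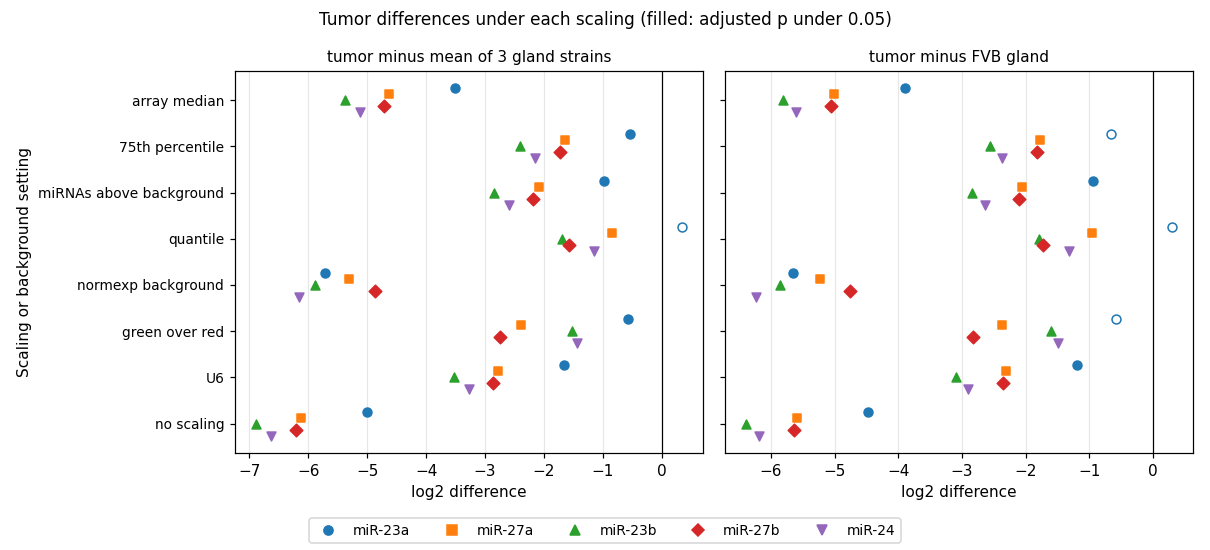
Log2 difference of each miRNA between the tumors and the mean of the 3 gland strains, or the FVB glands, under 8 settings, filled where limma's adjusted p was under 0.05. The points of miR-27b rest on tumor levels that were not well above background. All points lie left of 0 except miR-23a under quantile normalization, at 0.34 and 0.30.

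The miRNAs most alike to each member over the 8 glands were found by the mean absolute difference of levels, with each miRNA centered on its own mean over these arrays, among 256 other tested miRNAs. For miR-23a they were let-7f at 0.04, miR-652 at 0.07 and miR-189 at 0.08. For miR-27a they were let-7f at 0.05, miR-204 at 0.09 and miR-30d at 0.09, and for miR-23b let-7f at 0.05, miR-30d at 0.07 and miR-484 at 0.09. miR-27b was nearest to miR-204 at 0.06, miR-30d at 0.09 and miR-30b at 0.09, and miR-24 to miR-345 at 0.08, miR-494 at 0.08 and let-7f at 0.09. Between members, miR-23a and miR-23b differed by 0.05, miR-23b and miR-24 by 0.06, miR-23a and miR-27a by 0.06, and miR-27a and miR-27b by 0.07. The widest distance among members was that of miR-27b and miR-24 at 0.15. All these values share the 8 arrays and their scaling.

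The miRNA listed on the array as miR-189 was looked at after its values were seen, because its probe pairs with the other arm of one miR-24 hairpin. The probe matches RefSeq's miR-24-1-5p without its first base, an arm of the chromosome 13 cluster. The same arm of Mir24-2 on chromosome 8 has a similar sequence, and its part in the signal of this probe was not tested. The hairpin of Mir24-1 is shown to place both arms, which are in capitals, miR-24-1-5p first and miR-24-3p second.
Mir24-1: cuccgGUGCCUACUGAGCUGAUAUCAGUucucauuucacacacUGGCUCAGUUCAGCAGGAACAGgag
miR-189 gave green intensities of 1152 and 703 on FVB, 1924, 1602 and 1617 on Balb/C, and 1297, 1629 and 1549 on FVB129B6. On the tumors it gave 174, 135 and 160, and on none of them did it carry the call of well above background. Its levels over the array median were 2.06 ± 0.23 (SD, n = 2) in FVB, 1.64 ± 0.10 (n = 3) in Balb/C and 1.37 ± 0.13 (n = 3) in FVB129B6, in the order of strains that miR-24 also had.

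Marker miRNAs of the cell types a gland or tumor can hold were read on the same arrays. Of the epithelial markers, 7 of 7 were called lower in tumors than in the gland strains, with a median of -4.26, and their summed level was 4.26 to 4.68 on the tumors against 8.06 to 9.80 on the glands. Of smooth muscle and stromal markers 5 of 5 were called lower, with a median of -4.23. Of these, miR-143 and miR-214 were well above background on no tumor array, and the others on 1 to 3. Of the 3 endothelial markers on the array, miR-126-5p, miR-221 and miR-222, 3 were called higher, where 37.9% of all miRNAs were called higher. Their median was 1.41, and their summed level was 4.40 to 5.96 on the tumors against 3.69 to 4.69 on the glands. The authors also list miR-222 with basal tumors, so this list is not specific to endothelial cells. Of the epithelial markers, miR-141, miR-200b and miR-203 were well above background on none of the tumor arrays. The other epithelial markers were so on 1 to 3 of them. The endothelial miR-126-5p was so on none, and the other endothelial markers on 2 and 3. The level of miR-126-5p over the array median was 0.07 on the tumors, and -2.57, -3.52 and -3.55 on FVB, Balb/C and FVB129B6 glands. In skeletal muscle markers 3 of 3, in blood and lymphoid markers 5 of 7 and in fat cell markers 2 of 3 were called lower, with medians of -4.79, -2.53 and -3.45. Of all miRNAs, 52.5% were called lower in this contrast. Well above background on no tumor array were muscle miR-1, fat cell miR-378 and, among others of the blood and lymphoid list, miR-142-5p, miR-451 and miR-486. The other skeletal muscle markers were so on 1 tumor array and the other fat cell markers on 2. Against FVB glands alone, 1 of 3 endothelial markers was called higher with a median of 0.87, and of 3 skeletal muscle markers 1 was called higher and 1 lower with a median of -2.12. In that contrast 7 of 7 epithelial, 5 of 5 smooth muscle and stromal, 5 of 7 blood and lymphoid and 3 of 3 fat cell markers were called lower. Over 7 other scalings and corrections the epithelial, stromal and skeletal muscle medians stayed below 0. The endothelial median turned to -0.09 with no scaling, -0.68 under normexp and -0.48 for green over red, that of blood and lymphoid markers to 0.45 under the 75th percentile and 0.01 with scaling on miRNAs well above background, and that of fat cell markers to 0.48 under quantile normalization. The part of these cell types in the tumor values of the miR-23/27/24 members was not tested.

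Between strains the muscle markers moved most. All 3 skeletal muscle markers were called higher than in FVB in both Balb/C and FVB129B6, with medians of 5.32 and 4.15. Under median scaling this was opposite in direction to the members. With no scaling or scaling on U6 the members, too, were higher than in FVB. miR-103 and miR-107, 2 of the 3 fat cell markers, had log2 differences of -1.17 and -1.22 in Balb/C minus FVB, and 2 of the 3 were called lower in each of the contrasts with FVB. Of the epithelial markers 2 of 7 were called lower in Balb/C minus FVB and 0 of 7 in FVB129B6 minus FVB. For endothelial markers 1 of 3 was called lower in each of these contrasts, for smooth muscle and stromal markers 0 of 5, and for blood and lymphoid markers 1 of 7 and 3 of 7. In Balb/C minus FVB129B6, 1 of 7 blood and lymphoid markers was called higher and none of the other lists held a call. The skeletal muscle medians stayed above 0 in both contrasts with FVB under the 7 other settings, and those of the other lists turned in sign under at least 1 of them in Balb/C minus FVB. The part of these cell types in the strain differences of the members was not tested.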

How the data were processed

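Total RNA was 3′ labelled and hybridized to a custom array in which each mouse miRNA has 4 spots. The authors deposited scanner intensity values, background subtracted and dye normalized, and a table of log2 values that equals the log2 green intensity after 1 constant per array. The scanner program was version 9.5.1.1 for the tumors and 10.5.1.1 for the glands. The methods name Hy3 and/or Hy5, and what the red channel holds is not stated.

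From these, log2 green intensities minus each array's median were computed over 1336 mouse spots, outlier spots were dropped, and the spots of a miRNA averaged. A miRNA was tested if at least 50% of its spots were well above background on at least 3 arrays, in place of the MAS5 calls of the methods. Strains and tumors were fitted with limma 3.58.1 in R 4.3.3, over 8 glands or all 11 arrays, with Benjamini-Hochberg adjustment. The fits were tested on simulated data. Paralog differences were tested by exact permutation. All members were named, with 3 most alike miRNAs each and up to 3 markers of a list. Alternatives were other scalings, background corrections, filters, spot summaries and arrays left out, and scaling on U6 was added after seeing the data. Members, lists and rules were chosen with earlier results of these data known.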

Additional observations from a re-analysis of the deposited data

Results flagged for a closer look

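The red channel entered only the alternative that takes the ratio of green to red, and it held signal for all 5 miRNAs on all 3 tumor arrays, where it was well above background in every case, while in green a member was so on 0 to 2 of them. The lowest red intensity on the tumor arrays was 1772 for miR-23a, 917 for miR-27a, 1038 for miR-23b, 1323 for miR-27b and 1350 for miR-24. The geometric mean red intensity over the random 22-mer spots of an array was at most 173 on these arrays, and single spots are not given. On the glands the members gave 13544 to 122348 in red. What the red channel holds is not stated in the sources used here, and the difference between the channels was not tested. No group held enough arrays for a check on outlying samples.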

How the results depend on the processing

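The strain calls depended on the scaling, and the cause was not tested. The F-test, Balb/C minus FVB and FVB129B6 minus FVB, with 5, 5 and 4 members called, had 0 called under the 75th percentile, scaling on miRNAs well above background, quantile normalization, normexp, the ratio of green to red and a fit over all 11 arrays. With no scaling, the members miR-23a, miR-27a, miR-23b, miR-27b and miR-24 exceeded their FVB levels by 0.80, 0.73, 0.72, 0.74 and 0.69 (Balb/C) and by 0.81, 0.88, 0.78, 0.98 and 0.64 (FVB129B6). Scaled on U6, they were higher by 0.64, 0.57, 0.56, 0.58 and 0.53 in Balb/C, with 0 called, and by 0.78, 0.86, 0.75, 0.95 and 0.61 in FVB129B6, with 1 called, and the F-test called 0. Under normexp miR-23a, miR-27a, miR-23b and miR-27b turned to 0.132, 0.106, 0.0712 and 0.149 in Balb/C minus FVB, and miR-23a, miR-27a, miR-23b and miR-27b to 0.0517, 0.131, 0.0232 and 0.219 in FVB129B6 minus FVB. With scaling on miRNAs well above background, miR-27b, not called in FVB129B6 minus FVB, turned to 0.0871 there. Under green over red, miR-23a turned to 0.0240 in the former and miR-27a to 0.0191 in the latter. Averaging the like-titled Balb/C arrays left 2 called by the F-test, beside 106 of all 261 miRNAs. Leaving out 1 array left 1 to 5 called by the F-test, 2 to 5 in Balb/C minus FVB and 1 to 4 in FVB129B6 minus FVB.

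Same-numbered arrays did not deviate together (mean correlation 0.04 over 15 pairs, against -0.02 over 30 others). With the replicate number as a block, FVB129B6 minus FVB called 2, the F-test 1, and Balb/C minus FVB 4. Of all 261 miRNAs, 105, 96 and 96 were called, in the same order.

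In the tumor contrasts 5 of 5 stayed called without any 1 array. Under quantile normalization miR-23a turned to 0.34 against the gland strains and 0.30 against FVB. With only miRNAs well above background on every array, 0 members could be tested. The paralog test called 0 under all alternatives run. On the tumor arrays the members' green signal was close to that of the random probes, which limits what these arrays can show.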
